A study of Mus musculus with 4 samples.

Results

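Hyaluronan genes and their partners in tendon were described: the hyaluronan synthase genes Has1, Has2 and Has3, the hyaluronidase genes Hyal1 and Hyal2, the receptor gene Cd44, the proteoglycan genes Vcan (versican) and Acan (aggrecan), and Tnfaip6 and Hapln1, whose proteins bind hyaluronan through a link module. These 10 genes were listed by symbol, and each was represented by the probe set, annotated to that symbol alone, with the highest mean over the 4 arrays. Of the 10 genes, 9 had such a probe set, 1 each, among 22180 genes measured in this way. The exception was Hyal1, whose 2 probe sets also carry the symbol of Naa80, a protein-coding neighbour on chromosome 9, so Hyal1 has no value here. RNA came from the Achilles and plantaris tendons of untreated wild-type C57Bl/6 mice aged 4 months, and the study compared basal expression in the sexes, with 2 arrays from males and 2 from females. All 4 arrays shared strain, age and tissue, and no group carried an allele or a treatment. The labels name tenocytes as the cell type, but whole tendons were homogenized, and each sample is described as 3 RNA wells, with no word on pooling. Nothing in the labels says which samples came from separate mice, so a p-value here reflects the spread between arrays and that spread may be technical.

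Hyaluronan is a long unsulfated sugar chain that is made at the plasma membrane by the hyaluronan synthases and pushed directly into the matrix. Hyaluronidases cut it into fragments, and CD44 on the cell surface binds it and helps to take it up. Versican and aggrecan are large chondroitin sulfate proteoglycans whose globular head docks on hyaluronan, where link protein, the product of Hapln1, locks them in place. In tendon these water-holding aggregates are known from the pericellular matrix, from the loose tissue between fascicles and from regions under compression.

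The sex labels were checked first. Xist was at 2.47 and 1.98 in males 1 and 2 and at 7.34 and 8.04 in females 1 and 2, and the Y-linked gene Eif2s3y was at 4.46 and 4.96 against 2.86 and 1.65. Of 10 tendon markers, 9 lay above the array's own median on every array, Scx, Tnmd and Col1a1 among them. All 12 skeletal muscle markers did so too, with a mean level of 9.98, 9.90, 9.94 and 9.12 in males 1 and 2 and females 1 and 2. Muscle RNA was thus measured beside tendon RNA, and fewer cells of a type cannot be told apart from less RNA per cell. All values are log2 RMA values, on which a difference of 1 is a doubling. Signal was not told from background at or below the array medians, which lay between 2.27 and 2.30. Levels of different genes were not set against each other, because probe sets differ in how strongly they hybridise.

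No gene of the hyaluronan system passed the test for a sex difference. Limma with Benjamini-Hochberg adjustment called 0 of 9 members, and 0 of 23521 probe sets tested (0%). It did not call the genes of the sex check either. Xist had a female minus male difference of 5.47 and a limma adjusted p of 0.77. Eif2s3y had a difference of -2.45 and a limma adjusted p of 0.97. An absent call is thus no evidence that the sexes are alike in a gene. At an unadjusted p under 0.05 there were 0 members, against 1056 probe sets (4.49%). The arrays of the sexes did not overlap for 3 members, Has1, Has2 and Tnfaip6, all with higher values in males, and 33.3% of all probe sets tested did not overlap in one or the other direction. Of the 9 members 7 had a lower mean in females, beside 51.2% of all probe sets. The median of female minus male was -0.18 over the members and -0.0062 over all probe sets. That median rested on single arrays: it was -0.05 without male 1, -0.38 without female 2 and 0.05 without female 1. The adjusted p of the members lay between 0.97 and 1.0 with 4 arrays.

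**Figure D1:**
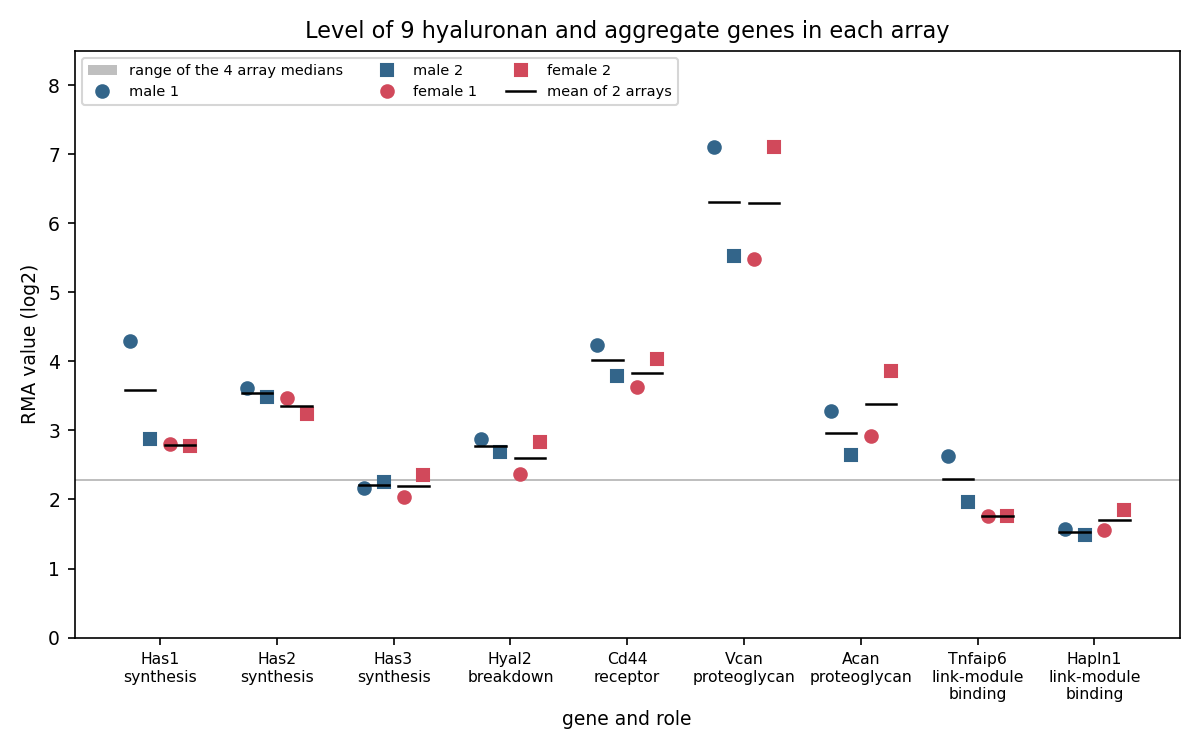
The vertical axis gives the log2 RMA value, and each gene has 4 points, one per array, with a bar at the mean of the 2 arrays of a sex; the grey line marks the range of the 4 array medians. Vcan sits near 7.1 in male 1 and female 2 and near 5.5 in the other arrays, Has1 stands apart in male 1 at 4.30, Hapln1 lies below the grey line, and Has3 lies close to it on both sides.

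Among the synthase genes, Has1 varied most between arrays. Has1 was at 4.30 in male 1 and 2.88 in male 2, and at 2.81 and 2.77 in females 1 and 2. Male 1 stood apart from the other 3 arrays, which lay within a narrow band. The male mean was 3.59 ± 1.01 (SD, n = 2) and the female mean 2.79 ± 0.03 (SD, n = 2). The difference was -0.80 (SE 0.50, 95% interval -2.14 to 0.54, limma adjusted p = 0.97). Without male 1 the difference was -0.09, and without male 2 it was -1.52.

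Has2 encodes the synthase that is essential for hyaluronan in the embryo. It was at 3.61 and 3.48 in males 1 and 2 and at 3.48 and 3.24 in females 1 and 2. The sexes did not overlap, but the lowest male and the highest female value were nearly equal, at 3.479 and 3.477. The difference was -0.19 (SE 0.17, 95% interval -0.63 to 0.26). This interval does not hold the -0.80 measured for Has1, but the interval of Has1, -2.14 to 0.54, holds -0.19. Whether Has1 and Has2 differ in this was not tested. Has3, which makes shorter chains in many cells, was at 2.17 and 2.25 in males and at 2.04 and 2.35 in females. Only female 2 lay above its own array's median for Has3, and no difference is read from it.

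Tnfaip6 encodes TSG-6, a secreted link-module protein that transfers heavy chains onto hyaluronan and is induced in inflammation. It was at 2.62 and 1.96 in males 1 and 2 and at 1.76 in both female arrays. Male 1 alone lay above its array's median, so Tnfaip6, like Has1, stood apart in male 1. The difference was -0.53 (SE 0.26, 95% interval -1.24 to 0.18, limma adjusted p = 0.97), and it was -0.20 without male 1. The female mean was below every array's median, where signal is not told from background. Ptx3, whose pentraxin product works with TSG-6 in cross-linking hyaluronan, did not follow this pattern: it was at 2.97 and 2.90 in males and at 2.74 and 2.13 in females.

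Of the 9 members 5 were highest in male 1, namely Has1, Has2, Hyal2, Cd44 and Tnfaip6, against 28.1% of all probe sets tested. The other 4 were highest in female 2, and none was highest in male 2 or female 1. Of the neutrophil markers, S100a8 reached 3.47 in male 1, whereas the other 3 arrays ranged from 1.64 to 1.81. The 6 neutrophil markers together had a mean level of 2.30 in male 1 and of 1.82, 1.98 and 1.96 in male 2 and females 1 and 2. Without S100a8 the mean of the other 5 was 2.07 in male 1 and 1.86, 2.03 and 1.99 in the same order of arrays, with S100a9 highest in female 1 and Cxcr2 in female 2. None of the 6 lay above the array's own median on every array, and 3 lay below it on all. Their part in the values of male 1 was not tested.

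The sequences before the start sites of Has1 and Tnfaip6 are shown because both genes stood apart in male 1, with that of Vcan beside them as the gene of widest spread. They are the 250 bases before the start site from RefSeq, build GRCm38.p6, read in the direction of the gene. Has1 lies at chr17:17855189-17855438 on the minus strand, Tnfaip6 at chr2:52037863-52038112 on the plus strand and Vcan at chr13:89742513-89742762 on the minus strand. Capitals mark a cAMP response element (CRE) in Has1, a GC box and then an AP-1 motif in Tnfaip6 and a pair of GC boxes in Vcan.
Has1: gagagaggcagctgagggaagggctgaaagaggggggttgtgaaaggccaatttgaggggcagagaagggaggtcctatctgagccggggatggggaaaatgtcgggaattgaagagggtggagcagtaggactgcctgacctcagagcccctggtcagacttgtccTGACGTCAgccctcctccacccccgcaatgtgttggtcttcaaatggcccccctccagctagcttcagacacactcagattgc
Tnfaip6: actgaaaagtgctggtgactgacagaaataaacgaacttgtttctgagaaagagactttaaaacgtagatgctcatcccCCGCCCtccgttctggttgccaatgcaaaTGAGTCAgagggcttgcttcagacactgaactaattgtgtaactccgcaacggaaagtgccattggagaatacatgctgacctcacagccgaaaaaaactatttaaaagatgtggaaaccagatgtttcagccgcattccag
Vcan: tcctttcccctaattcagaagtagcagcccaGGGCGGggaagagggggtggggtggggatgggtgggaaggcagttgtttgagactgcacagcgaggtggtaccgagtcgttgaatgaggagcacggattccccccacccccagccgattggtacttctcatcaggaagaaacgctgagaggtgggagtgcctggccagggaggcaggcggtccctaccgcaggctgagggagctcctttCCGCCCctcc

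Both strands were searched in the 8 member promoters that the RefSeq table held; it had none for Has2 and Has3. The AP-1 motif, spelled TGANTCA, was found in Tnfaip6 alone, at 142 bases before the start, and in 6.73% of 32536 promoters of the same length. The CRE, spelled TGACGTCA, was found in Has1 alone, at 83 bases before the start, and in 1.56% of all promoters. A GC box, spelled GGGCGG, was present in 5 of the 8, the promoters of Hyal1, Hyal2, Vcan, Acan and Tnfaip6, and in 33.0% of all promoters. The kappaB consensus matched in Hyal2 and Acan and in 3.92% of all, and the TATA box, spelled TATAAA, in none of the 8 and in 12.3% of all. No match of one motif overlapped a match of another in the 3 sequences shown. These matches are a description of letters in the windows and show no binding.

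Hyaluronan breakdown was represented by Hyal2, a membrane-anchored hyaluronidase that cuts long chains. Hyal2 was at 2.88 and 2.68 in males 1 and 2 and at 2.36 and 2.83 in females 1 and 2. The sexes overlapped, with female 1 lowest. The difference was -0.18 (SE 0.22, 95% interval -0.77 to 0.41), and it was 0.05 without female 1. Hyal3, a relative in the same gene cluster on chromosome 9, was at 2.55, 2.25, 2.35 and 2.43 in males 1 and 2 and females 1 and 2. Cemip, which encodes a hyaluronan-depolymerising protein, lay below the array's own median on every array. Its relative Cemip2 was at 3.10 and 2.63 in males and 2.63 and 3.02 in females. Of 8 further breakdown genes listed, 7 were measured, 1 with a higher and 6 with a lower mean in females, beside 51.2% of all probe sets with a lower one. The median difference was -0.06, and 3 of the 7 lay below the array's own median on every array, Cemip among them. Limma called 0 of the 7, with 0 at an unadjusted p under 0.05.

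Cd44, the main cell surface receptor of hyaluronan, was at 4.24 and 3.78 in males 1 and 2 and at 3.63 and 4.04 in females 1 and 2. The sexes overlapped, and male 1 and female 2 were the higher array of each sex. The difference was -0.18 (SE 0.25, 95% interval -0.85 to 0.49). It turned to 0.05 without male 1 and to 0.03 without female 1. Cd44 is also expressed by leukocytes. The 14 macrophage markers had a mean level of 3.76, 3.63, 3.69 and 4.82 in males 1 and 2 and females 1 and 2. Their part in the Cd44 values was not tested.

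Among other hyaluronan receptors, Lyve1, the receptor of lymphatic endothelium and of some tissue macrophages, had the widest difference. It was at 5.60 and 6.14 in males 1 and 2 and at 6.46 and 6.86 in females 1 and 2, without overlap. The difference was 0.79 (SE 0.27), with an unadjusted p of 0.036 and a limma adjusted p of 0.97. Prox1, the transcription factor gene of lymphatic endothelium, was at 1.92 and 2.29 in males and at 3.82 and 3.32 in females. Pdpn, another marker of lymphatic endothelium that other stromal cells also express, went the other way, at 4.71 and 4.69 in males and 4.26 and 4.31 in females. The 8 endothelial and lymphatic markers had a mean level of 3.71, 4.50, 4.55 and 4.69 in males 1 and 2 and females 1 and 2, and their part in the Lyve1 values was not tested. Stab2, a clearance receptor of sinusoidal endothelium, lay above its array's median in female 1 alone, and Hmmr, which encodes an intracellular hyaluronan-binding motility protein, on no array. Tlr4, an innate immune receptor gene linked to responses to hyaluronan fragments, was at 3.996 and 3.76 in males and at 4.004 and 4.11 in females. Of 7 receptor genes 5 had a higher and 2 a lower mean in females, beside 51.2% of all probe sets with a lower one, and 0 were called by limma.

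Vcan had the widest spread of all members, and the spread lay within the sexes. Vcan was at 7.10 in male 1 and 5.52 in male 2, and at 5.48 in female 1 and 7.11 in female 2. One array of each sex was high and one low, a 3.08-fold range on the linear scale, and the sexes overlapped fully. The male mean was 6.31 ± 1.11 (SD, n = 2) and the female mean 6.30 ± 1.15 (SD, n = 2). The difference of -0.02 (SE 0.77) had a 95% interval from -2.09 to 2.06, so these arrays do not show that the sexes are alike in Vcan. It was 0.77 without male 1 and 0.80 without female 1, and between -0.83 and -0.80 without either of the others. Pooled over the sexes, the within-sex SD of Vcan was 1.13, and 0.77% of all probe sets tested had one as large, as had 1.35% of those with a mean above every array median. The median within-sex SD was 0.19 over all probe sets.

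Acan was at 3.29 and 2.64 in males 1 and 2 and at 2.92 and 3.85 in females 1 and 2. As with Vcan, male 1 and female 2 were the higher array of each sex, and the sexes overlapped. The difference was 0.43 (SE 0.41, 95% interval -0.66 to 1.51), the widest toward females among the members, and it was -0.04 without female 2. The within-sex SD was 0.57, and 7.67% of all probe sets had one as large, as had 13.2% of those with a mean above every array median. Aggrecan is the main proteoglycan of cartilage, so cartilage markers were read beside it. Col2a1, the gene of cartilage collagen, was at 2.76, 2.80, 2.76 and 2.91 in males 1 and 2 and females 1 and 2. Chad, a matrix gene of cartilage and tendon, was at 10.30 and 9.70 in males and at 9.69 and 10.70 in females, and Snorc was at 2.91 and 2.80 in males and 2.73 and 3.14 in females, both higher in male 1 and in female 2 as Acan was. This order was seen in 5 of the 10 cartilage markers, namely Chad, Snorc, Col9a1, Cnmd and Matn3. Among those without it, Col9a2 was at 5.01 and 3.99 in males and at 4.42 and 4.31 in females. Sox9, also without it, was at 4.24 and 4.01 in males and at 4.16 and 4.12 in females. The 10 cartilage markers had a mean level of 3.58, 3.36, 3.35 and 3.54 in males 1 and 2 and females 1 and 2. Of the 10, 2 genes, Cnmd and Matn3, lay below the array's own median on all 4, and Col9a1 lay above it in male 1 alone. The order of these genes is thus not told from background. The part of cartilage in the Acan values was not tested.

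Hapln1, the cartilage link protein gene and a direct protein-coding neighbour of Vcan on chromosome 13, was at 1.58 and 1.48 in males and at 1.56 and 1.84 in females. It lay below the array's own median on every array, so no difference is read from it. Hapln3, the neighbour of Acan on chromosome 7, was at 2.40 and 2.27 in males and at 2.31 and 2.52 in females, close to the array medians.

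**Figure D2:**
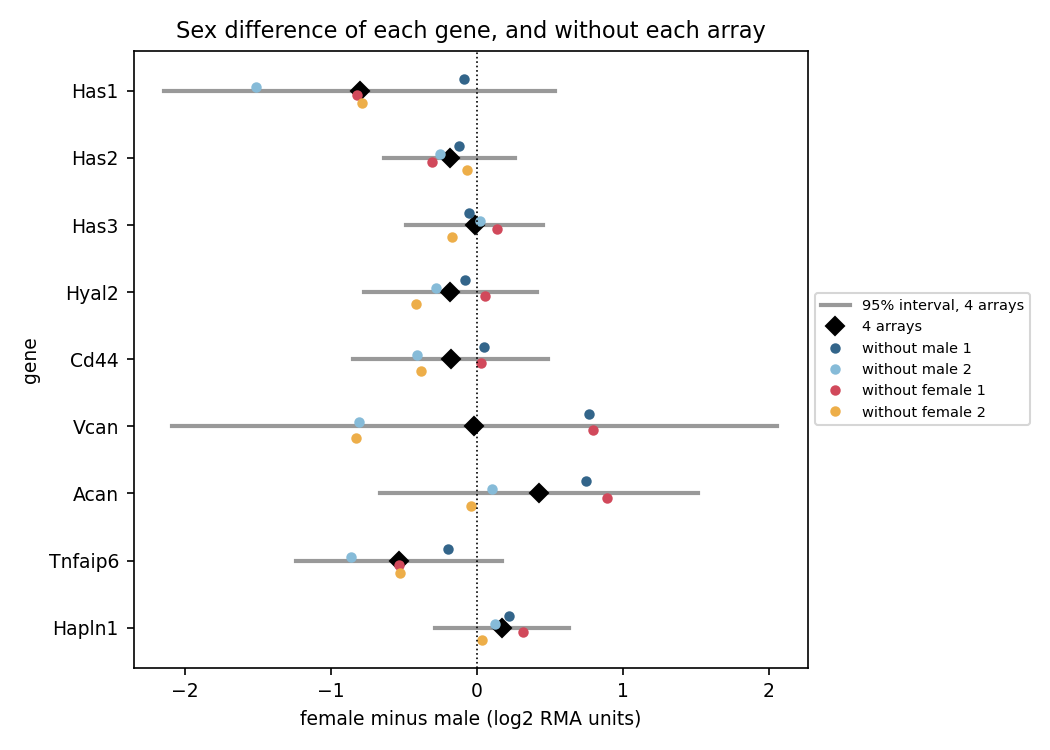
The horizontal axis gives female minus male in log2 RMA units; diamonds are the difference over 4 arrays, grey bars its 95% interval and small points the difference without each array in turn. Every interval spans 0, from -2.09 to 2.06 for Vcan, and the points of Vcan lie on either side of 0 between -0.83 and 0.80.

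The split of Vcan within each sex was read against the matrix and cell type markers. Comp, which encodes a cartilage and tendon matrix protein, was at 8.01 and 6.64 in males 1 and 2 and at 6.90 and 8.75 in females 1 and 2; it was named after its values were seen. The 10 tendon markers had a mean level of 6.23 and 6.05 in males and of 5.80 and 6.44 in females, and among them Fmod was at 7.89 and 7.75 in males and at 7.16 and 8.85 in females. Muscle markers were not paired in this way. Of the 12, 10 were lowest in female 2, where Ckm was at 9.72 against 10.29 to 10.52 in the others. Myh1 and Myh2 were not, at 8.93 and 9.34 in female 2 against 8.86 and 9.01 in male 1. The fall was wide for Myh4, at 7.35 in female 2 and 10.20 in female 1. It was slight for Acta1, at 11.091 in female 2 and 11.093 in male 1. The order of Vcan, with male 1 above male 2 and female 2 above female 1, was seen in 25.7% of all probe sets tested. It was seen in 7 of 10 tendon, 3 of 4 synovial lining and paratenon, 5 of 10 cartilage and 5 of 14 macrophage markers. For Col9a1, Cnmd and Matn3 among the cartilage markers, the order was not told from background. Mast cell and neutrophil markers had it in 4 of 6 each, though none of these had a mean above every array median. Counts were lower for lymphocyte (2 of 9), endothelial and lymphatic (1 of 8), adipocyte (1 of 8), keratinocyte (0 of 5) and muscle markers (0 of 12). The order was thus not particular to tendon markers. Among the members the order was also seen in Hyal2, Cd44, Acan and Hapln1, which makes 5 of 9 with Vcan. Hapln1 lay below the array's own median on every array, so its order is not told from background. Macrophage markers differed among themselves. H2-Ab1 was at 7.72 and 5.38 in males and at 5.93 and 8.19 in females, in the order of Vcan, as was Csf1r, whereas H2-Aa was at 2.25 and 2.94 in males and at 2.95 and 6.10 in females. Among adipocyte genes Adipoq was lowest in male 1, at 4.62, and highest in female 2, at 6.67, while Plin1 was at 5.19 and 4.96 in males and at 4.81 and 5.30 in females. The part of tendon, macrophages or other tissue in the Vcan values was not tested.

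Genes around the supply of nucleotide sugars were compared, because hyaluronan synthesis depends on such sugars. Gfpt2 encodes an entry enzyme of the hexosamine pathway, and it was at 6.80 and 5.35 in males 1 and 2 and at 4.79 and 6.25 in females 1 and 2. Ugdh, whose enzyme makes UDP-glucuronic acid, was at 6.69 and 5.98 in males and 5.85 and 6.32 in females. In both genes male 1 and female 2 were the higher array of each sex, as for Vcan. This order was seen in 6 of the 10 measured genes of the list, beside 25.7% of all probe sets tested. It was seen in 6 of 10 matrix partners, 5 of 8 CD44 partners, 3 of 7 breakdown and 2 of 7 other receptor genes. Counts were 5 of 16 for other hyaluronan-binding, 6 of 22 for chondroitin sulfate and 0 of 7 for protease genes. A link of these genes with Vcan was not tested. The differences were -0.55 (SE 0.71) for Gfpt2 and -0.25 (SE 0.32) for Ugdh, and they turned to 0.17 and 0.105 without male 1. Slc35d1, a nucleotide sugar transporter gene, makes no precursor itself but was counted in this list. It was at 2.34 in both males and at 2.40 and 2.41 in females, near the array medians. Whether it bears on hyaluronan synthesis was not tested. Of 11 genes listed 10 were measured, Slc35d1 among them, 5 with a higher and 5 with a lower mean in females, and 4 were highest in male 1. Limma called 0 of them, and 0 had an unadjusted p under 0.05.

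**Figure D3:**
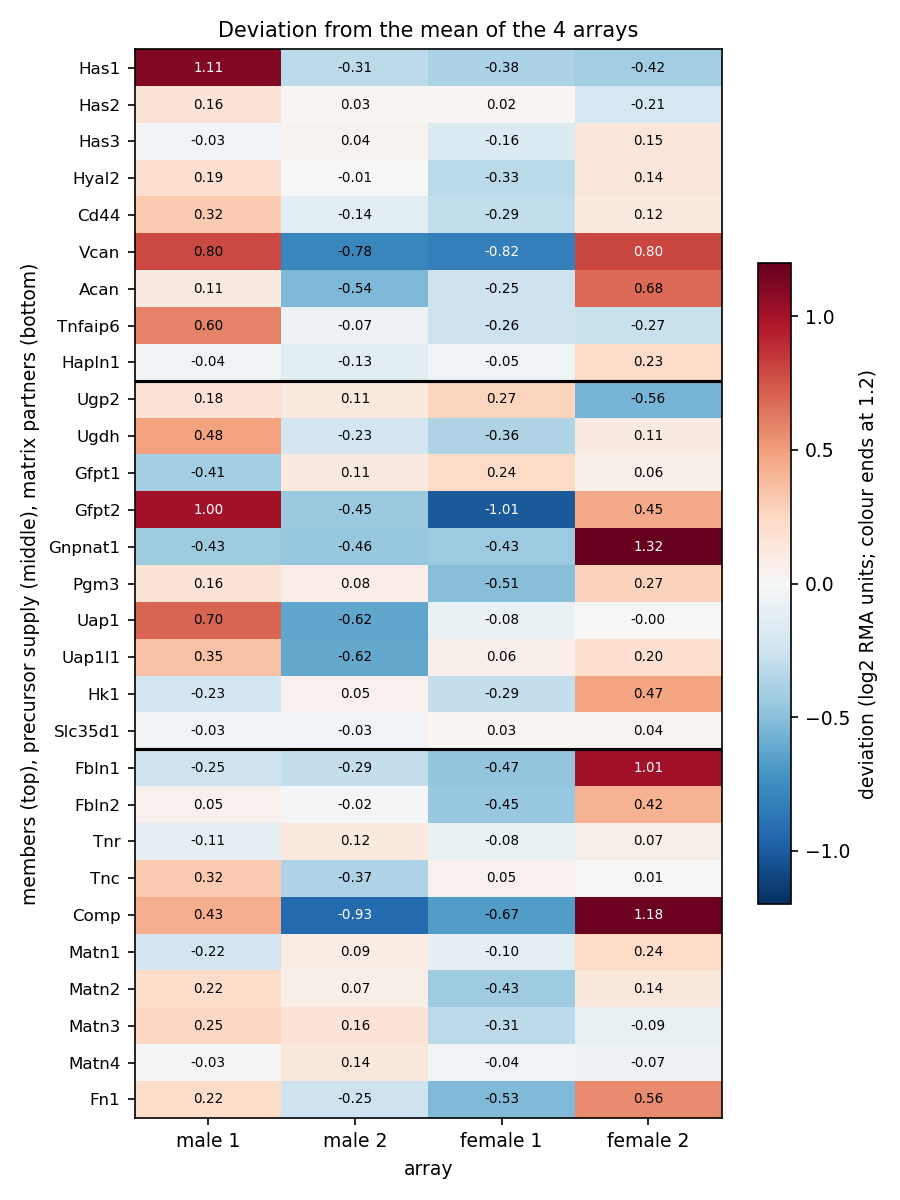
Each row is a gene and each column an array. Colour and number give the deviation from that gene's mean over the 4 arrays in log2 RMA units. Shown are the 9 members, 10 genes of the precursor supply list and 10 matrix partners of aggrecan and versican. Vcan, Gfpt2 and Comp are positive in male 1 and female 2 and negative in male 2 and female 1, whereas Has1 and Tnfaip6 are positive in male 1 alone.

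Chondroitin sulfate chains are attached to versican and aggrecan, and the genes that build them were compared as a list. Of 24 listed genes 22 were measured, 11 with a higher and 11 with a lower mean in females, with a median difference of -0.0009. Chst13, a chondroitin sulfotransferase gene, was at 3.30 and 2.78 in males and at 2.51 and 2.40 in females. Papss1, whose enzyme makes the sulfate donor, was at 3.09 and 3.57 in males and at 2.76 and 2.89 in females. B3gat3, which adds glucuronic acid to the linkage region, was at 3.06 and 3.10 in males and at 4.12 and 3.34 in females. These 3 genes were named for not overlapping, which 5 of the 22 did, beside 33.3% of all probe sets. They had differences of -0.58 (SE 0.23), -0.51 (SE 0.22) and 0.65 (SE 0.30), each with a limma adjusted p of 0.97. The polymerase gene Chsy1 differed by -0.31 (SE 0.27) and by 0.0245 without male 1, while Chst3 lay below the array's own median on every array and Chst11 on 2 of them.

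Proteases that cut aggrecan and versican varied within the sexes. Adamts5 was at 4.21 and 4.94 in males 1 and 2 and at 3.40 and 6.00 in females 1 and 2, so its lowest and highest arrays were both female. Adamts1 was at 2.42 and 3.69 in males and at 3.86 and 2.84 in females, low in the arrays where Vcan was high. Adamts5, in contrast, was highest in female 2, where Vcan was highest too. A link of either gene with Vcan was not tested. Adamts4 lay below the array's own median on every array. The differences were 0.13 (SE 0.92) for Adamts5, which was -0.24 without male 1 and -1.17 without female 2, and 0.29 (SE 0.57) for Adamts1, which was -0.34 without male 1 and -0.22 without female 1. Of the 7 genes listed 5 had a higher and 2 a lower mean in females, beside 51.2% of all probe sets with a lower one, and 0 were called by limma.

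Other genes linked to hyaluronan binding, not all of them matrix genes, and the partners of CD44 were compared last. Prg4, the gene of the lubricant lubricin, was at 10.02 and 9.74 in males and at 9.14 and 10.13 in females. Habp4 was listed because it is named for hyaluronan binding, and a role of its product in the matrix was not tested. Habp4 was at 3.38 and 4.16 in males and at 5.04 and 4.59 in females. Its difference was 1.05 (SE 0.34), with an unadjusted p of 0.031 and a limma adjusted p of 0.97. Itih2, the gene of a heavy chain that is transferred onto hyaluronan, was at 2.61 and 2.50 in males and at 2.36 and 2.47 in females. Of 16 genes in this list 6 had a higher and 10 a lower mean in females, beside 51.2% of all probe sets with a lower one. The sexes did not overlap in 6 (33.3% of all probe sets). Limma called 0 of them, and 1, Habp4, had an unadjusted p under 0.05 (4.49% of all). Among 8 measured CD44 partners of 10 listed, 7 had a higher and 1 a lower mean in females, beside 51.2% of all probe sets with a lower one. Limma called 0 of them. Female 2 was the highest array for 6 of the 8, so the count leans on that array. Srgn, which encodes serglycin, a leukocyte proteoglycan that binds CD44, was at 3.03 and 2.89 in males and at 3.08 and 3.95 in females. It was highest in female 2, and so were 11 of 14 macrophage, 6 of 10 tendon, 6 of 8 adipocyte and 0 of 12 muscle markers. The part of any cell type in the Srgn values was not tested. Among 10 measured matrix partners of aggrecan and versican of 11 listed, 5 had a higher and 5 a lower mean in females, and 0 were called.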

How the data were processed

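Expression was measured on 4 Mouse Gene ST 2.1 arrays, 2 male and 2 female. The values are log2 values deposited by the authors, made with oligo and RMA per the submitters' processing notes; for versions and annotation build the entry is: not given in the sources used here. Values ranged from 0.517 to 11.933, as log2 values do. No further normalization was applied.

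Of 41345 rows, GEO's platform annotation gave 1 symbol to 23521, which were tested; 1814 had several and 16010 none. Sex was the only term of a limma 3.58.1 fit (R 4.3.3; lmFit, eBayes), with Benjamini-Hochberg adjustment over all 23521 and a threshold of 0.05. The fit was tested on simulated data. An exact permutation test of 2 against 2 cannot go below p = 0.333. Precision is limited by the number of arrays: the median SE was 0.187.

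The members and lists were chosen with earlier results of these data known. Named were all members, from each of 8 pathway lists up to 3 genes of largest difference without overlap and with a higher mean above every array median, 16 genes in any case, and markers. S100a8, S100a9, Cxcr2, Prox1, Pdpn, Cnmd, Matn3, Chad, Snorc, Col9a1, Col9a2, Sox9, Fmod, Myh1, Myh2, Myh4, Acta1, H2-Ab1, Csf1r, Plin1 and Comp were named after their values were seen. Symbols were matched through RefSeq synonyms (GRCm38.p6; Tmem2 is Cemip2), and that table gave the neighbours. The CRE was searched whole after its shorter core had matched. Alternatives were all rows, a filter on dim probe sets, another prior, quantile normalization, median centring, array weights, the replicate block, an adjusted p under 0.1, the mean over probe sets and leaving out each array; a sex left with 1 array then takes its spread from the other sex. In the main fit the numbers 1 and 2 were not used to pair the arrays. Python 3.11.15 and matplotlib 3.10.9 made the figures.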

Additional observations from a re-analysis of the deposited data

How the results depend on the processing

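The count of called probe sets was 0 under all 12 alternatives run for it, and no gene named here passed the threshold under any alternative. The replicate block left every difference as it was, which the balanced layout fixes in advance, and also called 0 probe sets. Deviations of same-numbered arrays had a correlation of -0.064. With 2 arrays per sex this is 1 value for both numbers, and it cannot show whether same-numbered arrays shared a batch. Among the members, 4 of 9 kept their sign in every setting run: Has1, Has2, Tnfaip6 and Hapln1. Centring on the array medians turned Has3 (0.013), Vcan (0.011) and Hyal3 (0.014), and quantile normalization once more turned Has3 (0.017) and Hyal3 (0.0036); these differences were close to 0 and the cause was not tested. Leaving out 1 array in turn changed the sign of 14 of the 28 genes with a difference. Their ranges were -0.17 to 0.14 for Has3, -0.42 to 0.054 for Hyal2, -0.41 to 0.052 for Cd44, -0.83 to 0.80 for Vcan and -0.0395 to 0.89 for Acan. Among the pathway genes they were -0.34 to 0.93 for Adamts1, -1.17 to 1.42 for Adamts5, -0.28 to 0.19 for Cemip2, -0.61 to 0.105 for Ugdh, -1.28 to 0.18 for Gfpt2, -0.16 to 0.13 for Hyal3, -0.74 to 0.25 for Prg4 and -0.0195 to 0.19 for Hapln3. The polymerase gene Chsy1 ranged from -0.64 to 0.0245. The median over the members ranged from -0.38 to 0.054 around -0.18, and thus changed sign without female 1. Each shift was smaller than the SD of that median between arrays of a sex, 0.26. For a mean, so few arrays per sex fix this outcome in advance, so it is no evidence that the median is stable. For members at or below the array medians, signal over background limits any reading.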
